A study of Mus musculus with 12 samples.

Results

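Day 0 tumours driven by YAP1 were compared with normal hindlimb muscle, gene by gene, to see what such a muscle tumour gains and what it lacks. The comparison used 6 of the series' 12 arrays, the 3 titled as day 0 tumours and the 3 titled as control muscle, and 19937 genes. A gene entered when a probe set named it alone, and where several probe sets did, the brightest on average stood for the gene. Donor and control mice carried Myf5Cre, R26-LSL-rtTA and Col1a-Teto-hYAP1 S127A on C57BL/6, so Cre from the Myf5 locus switches on a doxycycline-dependent activator in the muscle lineage, and doxycycline then switches on a human YAP1 transgene. For the tumours, donors took doxycycline over 4 weeks, and cells from the interstitium of their hindlimb muscles were moved into the gastrocnemius of NOD/SCID hosts that were also given the drug. The tumours were allografts and were taken while the transgene was still on, at day 0 of drug withdrawal. Control muscle was the hindlimb muscle of mice of the same genotype that never received doxycycline. Transgene, drug, transplantation, host strain and the change from whole muscle to tumour therefore all differ between the groups and cannot be told apart. NOD/SCID hosts lack mature T and B cells. The labels do not say whether replicates were separate animals or give the sex of the mice, so p-values cover no more than the spread among these samples, and 3 arrays per group limit the precision.

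The Hippo pathway is a kinase cascade in which MST1 and MST2 activate LATS1 and LATS2, which phosphorylate YAP1 and TAZ and so keep them out of the nucleus. In the S127A form the main serine of that switch is replaced by alanine, and YAP1 stays free to bind TEAD factors on DNA. In muscle, YAP1 is active in dividing myoblasts, and rhabdomyosarcoma is a tumour of cells that have entered the muscle lineage but do not complete differentiation. Muscle fibres form when myoblasts leave the cell cycle, fuse, and replace embryonic forms of contractile and metabolic proteins with adult ones.

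The 6 arrays fell into their labelled groups. Of their variance, 97.3% lay on the first principal component, which separated tumours from muscle, and correlations between arrays over all genes were 0.998 to 0.999 among tumours, 0.995 to 0.997 among muscles and 0.865 to 0.88 across groups. Values are log2 of the deposited intensity, on which a difference of 1 is a 2-fold change, and the highest value on any of the 6 arrays lay between 13.62 and 13.83. The 1027 olfactory receptor genes, which muscle is not known to use, had a 95th percentile of 5.67, and lower values are called near background here. Where all 3 arrays of a group lay below it, a fold is given as a lower bound ("at least"), computed with that group set to 5.67, while the log2 difference is that of the fit. Differences are tumour minus muscle, ± gives the standard error of limma's fit with n = 3 arrays per group, and p-values are limma's, adjusted by Benjamini and Hochberg over all genes. At an adjusted p under 0.05, 76.2% of genes changed, 30.3% higher and 45.9% lower in tumours. Many of these differences were small, and 13.7% of genes were called at least 2-fold higher and 8.65% at least 2-fold lower. The 3 tumour arrays lay above all 3 muscle arrays for 32.3% of genes and below them for 50.4%. Counts for each list below are to be read against these shares of all genes. In the 25% of genes with the lowest levels, 55.2% were called lower but 0.3% by at least 2-fold, and counts of genes at least 2-fold apart therefore carry most weight below. The scaling mattered. The median difference of all genes was -0.146 as deposited, -0.285 with arrays centred on their medians, -0.037 after quantile normalisation, -0.001 after cyclic loess and -1.114 with arrays centred on 8 reference genes, which themselves ran from -0.61 for Pgk1 to 2.44 for Gusb. Higher calls made up 39.7% of all calls as deposited, 50.2% after cyclic loess and 12% with reference genes. Centring on reference genes moved every gene by -0.968, so any smaller rise below turned into a fall under that scaling, and each list whose median changed sign is named where it is described.

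**Figure D1:**
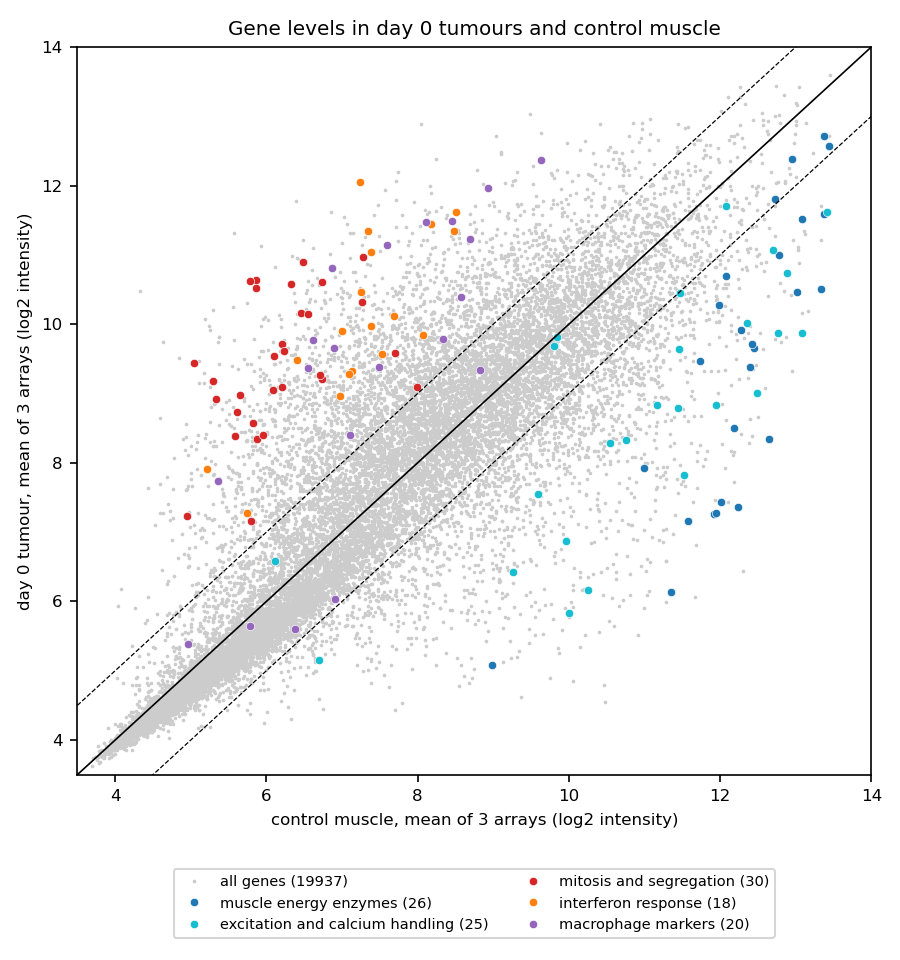
Mean log2 intensity of each of 19937 genes in 3 control muscle arrays (x axis) and 3 day 0 tumour arrays (y axis). The solid line marks equal levels and the dashed lines a 2-fold difference; most muscle energy and excitation genes lie below the lower dashed line, and mitosis, interferon and most macrophage genes above the upper one.

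The labels held up against the genes that define each tissue. Ckm, the muscle creatine kinase, read 13.33, 13.33 and 13.43 in control muscle and 11.62, 11.62 and 11.53 in the tumours. Myh4, the myosin of the fastest fibres, read 13.07, 13.06 and 12.99 in control muscle and 10.98, 10.86 and 10.83 in the tumours. Both fell, Ckm by 3.42-fold (log2 difference -1.77 ± 0.10, adjusted p = 3.1e-09) and Myh4 by 4.43-fold (log2 difference -2.15 ± 0.12, adjusted p = 3.37e-09), and both stayed far above the background level in every tumour array. Tumours thus still contained RNA of differentiated fibres, and whether it came from tumour cells or from gastrocnemius muscle of the host cannot be told apart. In bulk tissue, fewer cells of a type and less RNA per cell cannot be told apart either. Desmin (Des), the intermediate filament of muscle cells, read 12.68, 12.70 and 12.67 in control muscle and 12.24, 12.13 and 12.24 in the tumours, a fall of 1.39-fold (log2 difference -0.48 ± 0.09, adjusted p = 0.000432).

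The mouse Yap1 probe set read 9.43, 9.59 and 9.67 in control muscle and 9.83, 9.88 and 9.86 in the tumours. No tumour array overlapped with muscle, but the rise was small (log2 difference 0.29 ± 0.07, adjusted p = 0.00283), it was no longer called after median centring (adjusted p = 0.0855), quantile normalisation (adjusted p = 0.0549) or cyclic loess (adjusted p = 0.319), and it turned into a fall with reference genes. The transgene is human YAP1, so a mouse probe set may or may not detect it, and this value is no check of induction. Wwtr1, which encodes the YAP1 relative TAZ, had means of 9.39 in control muscle and 10.03 in the tumours and rose (log2 difference 0.64 ± 0.07, adjusted p = 3.31e-06), but fell with reference genes.

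Among 25 measured Hippo pathway components, 16 rose and 6 fell, where 30.3% of all genes were called higher and 45.9% lower. At least 2-fold apart were 10 and 2 of them, where 13.7% and 8.65% of all genes were, with a median of 0.56 that became -0.41 with reference genes. The kinases that restrain YAP1 were among the rises. Lats1 rose by 1.33 and Lats2 by 1.38, and Stk4, which encodes MST1, by 0.97. Mob1a, a cofactor of the LATS kinases, rose by 1.81, while its close relative Mob1b did not pass the test (log2 difference -0.07 ± 0.09, adjusted p = 0.448). Of the upstream scaffolds, the giant cadherin Fat1 rose 7.31-fold (log2 difference 2.87 ± 0.06, adjusted p = 1.83e-12) and the FERM protein Frmd6 3.63-fold (log2 difference 1.86 ± 0.10, adjusted p = 1.67e-09), the cadherin Fat4 fell (log2 difference -0.98 ± 0.12, adjusted p = 9.15e-06), and Nf2, which encodes Merlin, did not pass the test (log2 difference -0.05 ± 0.08, adjusted p = 0.589). The TEAD partners split. Tead1 fell by 0.55 (adjusted p = 0.000105), Tead2 rose by 1.22, Tead3 by 0.41, and Tead4 did not pass the test (log2 difference 0.24 ± 0.21, adjusted p = 0.311). Vestigial-like proteins bind TEAD factors as YAP1 does. Vgll3 read 7.78, 7.86 and 8.05 in control muscle and 10.22, 10.21 and 10.22 in the tumours (log2 difference 2.32 ± 0.07, adjusted p = 2.98e-11). Vgll2, the muscle form, read 10.45, 10.45 and 10.45 in control muscle and 8.21, 8.19 and 8.21 in the tumours (log2 difference -2.25 ± 0.08, adjusted p = 9.99e-11). The groups were fully separate for both genes, in opposite directions, as they were for 32.3% (tumours higher) and 50.4% (tumours lower) of all genes. The angiomotins bind YAP1 at cell junctions. Amot fell 3.86-fold and Amotl1 3.09-fold, whereas Amotl2 rose 3.43-fold.

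Target genes of YAP1 and TEAD mostly rose. Of 31 genes listed and measured, 20 were higher and 9 lower, 17 and 2 of them at least 2-fold, and the median difference was 1.38 against -0.15 for all genes, staying positive under each scaling tried. The core motif of TEAD binding, GGAATG, was present on either strand between 250 bases before and 50 after the start in 9 of the 21 targets with a promoter in RefSeq (42.9%), in 45.5% of Hippo components and in 15.1% of all 15613 genes tested that have one. The promoters of 2 classic targets with the motif show where it lies, 123 bases before the start of Ankrd1 (chr19:36119845-36119994, minus strand) and 103 before that of Ccn1 (chr3:145649986-145650135, minus strand), both in GRCm38.p6, 150 bases up to the start, with the motif or its reverse complement in capitals.
Ankrd1: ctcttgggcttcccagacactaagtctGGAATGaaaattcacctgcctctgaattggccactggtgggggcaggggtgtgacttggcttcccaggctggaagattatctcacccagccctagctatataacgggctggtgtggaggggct
Ccn1: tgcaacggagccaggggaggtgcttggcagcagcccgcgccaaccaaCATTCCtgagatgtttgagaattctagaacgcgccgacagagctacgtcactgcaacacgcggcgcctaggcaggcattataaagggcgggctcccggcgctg
A match describes these letters and does not show that the site is used. Among all genes at least 2-fold higher in tumours, 326 of 2172 with a promoter held the TEAD core. This was no larger a share than the 15.1% of all genes. Among genes at least 2-fold lower, 224 of 1373 held it (16.3%). The TEAD core was thus not more common among risen genes as a whole. Ankrd1, a sarcomeric ankyrin repeat protein, read 7.98, 8.04 and 8.26 in control muscle and 11.67, 11.60 and 11.67 in the tumours. Its tumour arrays lay within 0.1 of each other and well above all muscle arrays, a rise of 11.7-fold (log2 difference 3.55 ± 0.16, adjusted p = 6.39e-10). Ccn1, a secreted matricellular protein, read 9.45, 9.55 and 9.66 in control muscle and 11.34, 11.34 and 11.33 in the tumours (log2 difference 1.78 ± 0.07, adjusted p = 1.2e-10). Its neighbour in function Ccn2 read 10.25, 10.24 and 10.25 in control muscle and 11.00, 11.08 and 11.11 in the tumours, also without overlap, but its rise of 1.76-fold was under 2-fold (log2 difference 0.82 ± 0.07, adjusted p = 3.96e-07) and became a fall with reference genes. The LIM protein Ajuba, itself an inhibitor of the LATS kinases, rose 10.1-fold, the growth regulator Myc 5.20-fold and the receptor kinase Axl 3.57-fold. Among the highest were also listed targets that act in cell division, the actin-binding protein Anln (28.9-fold), the survival and mitosis gene Birc5 (5.47-fold) and Mybl1 (at least 2.90-fold). The largest fall of the list was that of Amotl1 (log2 difference -1.63 ± 0.12, adjusted p = 5.31e-08). The falls also included F3, the clotting initiator tissue factor, which read 7.33, 7.54 and 7.43 in control muscle and 6.28, 6.36 and 6.37 in the tumours (log2 difference -1.10 ± 0.19, adjusted p = 0.000178), and the TEAD gene Tead1 itself. Foxf2 (log2 difference -0.11 ± 0.07, adjusted p = 0.158) and Tgfb2 (log2 difference -0.17 ± 0.11, adjusted p = 0.158) did not pass the test.

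**Figure D2:**
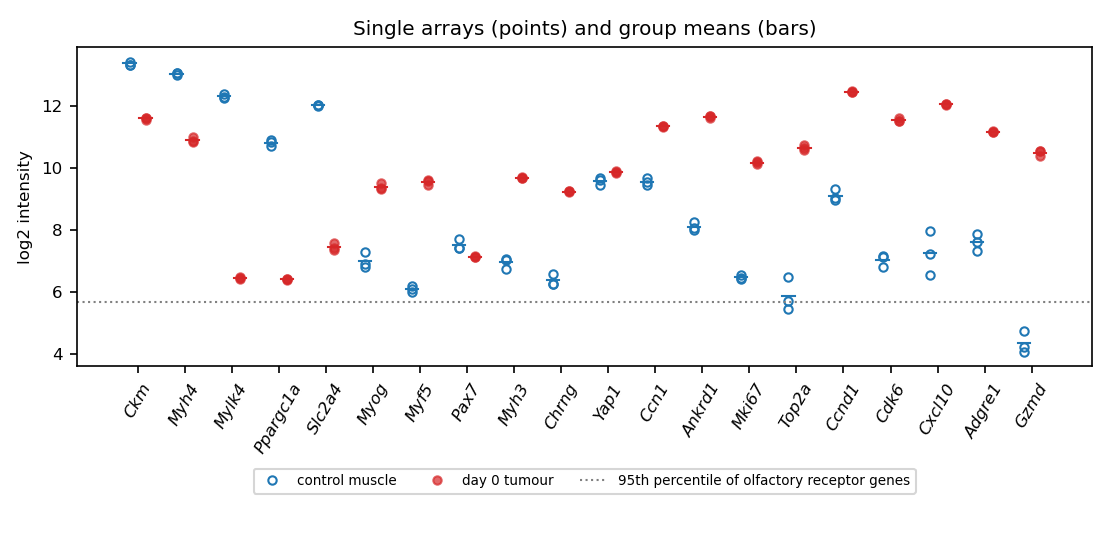
Log2 intensity of 20 genes on each of 3 control muscle arrays (open circles) and 3 day 0 tumour arrays (filled circles), with bars for group means. Yap1 and Pax7 differ little, while the groups are far apart for Mylk4, Ppargc1a, Cdk6 and Gzmd; the dotted line is the 95th percentile of olfactory receptor genes.

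Genes of the adult contractile apparatus fell almost throughout. All 17 adult thick filament genes fell, 16 of them at least 2-fold, with a median of -2.98, and so did 16 of 17 thin filament genes, 14 at least 2-fold, with a median of -2.16. Mylk4, a muscle myosin light chain kinase, read 12.28, 12.37 and 12.25 in control muscle and 6.48, 6.44 and 6.4 in the tumours, a fall of 58.0-fold (log2 difference -5.86 ± 0.14, adjusted p = 4.24e-12) that brought it within 1 unit of the background level in each tumour. Its relative Mylk2 fell 25.5-fold, the slow and cardiac light chains Myl3 21.2-fold and Myl2 12.2-fold, and the M-band protein Myom1 15.8-fold. The smallest fall of the list was that of Myl1, a fast and fetal light chain (log2 difference -0.65 ± 0.09, adjusted p = 4.33e-05). Of the myosin heavy chains, the fast forms Myh1, Myh2 and Myh4 differed by -1.66, -1.50 and -2.15, and the slow form Myh7 by -3.08, a contrast that was not itself tested. Several of these genes lie close to the top of the array's range in muscle, and whether saturation makes their falls look smaller was not tested. The motif of MEF2, a factor of muscle gene promoters, was found on either strand in 5 of 15 thick filament promoters (33.3%) and in 1.9% of all promoters, and the TEAD core GGAATG in 8 of the same 15 (53.3%), a larger share than among the YAP1 targets. The promoters of Mylk4 (chr13:32783965-32784114, minus strand) and Myom3 (chr4:135759565-135759714, plus strand), 150 bases up to the start in GRCm38.p6, hold the MEF2 motif in capitals, 103 and 35 bases before the start, and the letters in Myom3 also resemble a TATA box.
Mylk4: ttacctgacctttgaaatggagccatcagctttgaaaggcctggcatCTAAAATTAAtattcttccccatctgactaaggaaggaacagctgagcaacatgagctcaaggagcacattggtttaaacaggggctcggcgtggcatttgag
Myom3: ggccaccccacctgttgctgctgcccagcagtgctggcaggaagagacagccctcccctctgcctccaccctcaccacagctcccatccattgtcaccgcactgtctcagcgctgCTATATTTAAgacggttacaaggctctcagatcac
On thin filaments, the end-capping proteins Tmod1 and Tmod4 fell 13.6-fold and 11.5-fold, and the fast troponins Tnni2 and Tnnc2 8.28-fold and 7.59-fold. Skeletal actin (Acta1) read 13.40, 13.45 and 13.47 in control muscle and 12.76, 12.73 and 12.66 in the tumours and fell least of the list's falls (log2 difference -0.72 ± 0.06, adjusted p = 3.93e-07). The exception was Tpm3, the slow and cytoplasmic tropomyosin gene, which rose (log2 difference 1.62 ± 0.07, adjusted p = 4.76e-10) on the chosen probe set but stood at -0.03 on the mean of its 4 probe sets.

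Genes that hold and trigger the sarcomere fell with it. All 23 Z-disc and costamere genes were lower, 19 at least 2-fold, led by Smtnl2 (22.3-fold), Myoz3 (21.5-fold), the titin cap Tcap (14.3-fold) and the calsarcin Myoz1 (12.3-fold). Dystrophin (Dmd), which links the sarcolemma to the cytoskeleton, read 10.85, 10.91 and 10.84 in control muscle and 7.26, 7.28 and 7.39 in the tumours, a fall of 11.8-fold with no overlap (log2 difference -3.56 ± 0.17, adjusted p = 1.04e-09), and the chaperone Cryab fell least (log2 difference -0.28 ± 0.10, adjusted p = 0.0203), a call that was lost without the second muscle or the second tumour array. For excitation and calcium handling, 22 of 25 genes fell, 21 of them at least 2-fold, with a median of -2.34. The voltage-gated potassium channel Kcna7 fell 18.0-fold, the chloride channel Clcn1 17.1-fold, the calcium binder Hrc 13.0-fold and the voltage sensor Cacna1s 11.1-fold. Clcn1 read 10.26, 10.31 and 10.20 in control muscle and 6.26, 6.03 and 6.20 in the tumours, so tumour values lay within 1 unit of the background level. The calcium release channel Ryr1 read 12.72, 12.81 and 12.77 in control muscle and 9.89, 9.92 and 9.84 in the tumours and fell 7.38-fold without reaching background. Asph (log2 difference -0.03 ± 0.06, adjusted p = 0.674) and Casq2 (log2 difference -0.13 ± 0.15, adjusted p = 0.421), which are also used outside fast fibres, did not pass the test, and Sln, a small inhibitor of the calcium pump, rose (log2 difference 0.47 ± 0.12, adjusted p = 0.004) except with reference genes, where it fell.

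Fuel use followed the same direction. Each of 26 muscle energy enzymes fell, 22 at least 2-fold, with a median of -2.76. The phosphorylase kinase subunit Phkg1 fell 37.4-fold, Gpd1 of the glycerol phosphate shuttle 29.1-fold, the glycogen-targeting subunit Ppp1r3a 25.7-fold and the mitochondrial creatine kinase Ckmt2 25.3-fold. The insulin-dependent glucose transporter Slc2a4 read 11.99, 12.02 and 12.03 in control muscle and 7.41, 7.57 and 7.33 in the tumours, a fall of 23.9-fold with wide separation (log2 difference -4.58 ± 0.12, adjusted p = 5.53e-12). The smallest fall was that of the enolase Eno3 (log2 difference -0.57 ± 0.07, adjusted p = 6.33e-06). The E-box CAGCTG, which myogenic factors bind, was found in 15 of 23 of these promoters (65.2%) against 18.4% of all promoters. Those of Ppp1r3a (chr6:14755275-14755424, minus strand) and Ckmt2 (chr13:91876886-91877035, minus strand), 150 bases in GRCm38.p6, carry it in capitals 14 and 107 bases before the start.
Ppp1r3a: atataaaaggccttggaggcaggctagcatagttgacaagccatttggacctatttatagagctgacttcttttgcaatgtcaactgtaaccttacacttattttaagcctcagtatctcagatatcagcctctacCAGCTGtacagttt
Ckmt2: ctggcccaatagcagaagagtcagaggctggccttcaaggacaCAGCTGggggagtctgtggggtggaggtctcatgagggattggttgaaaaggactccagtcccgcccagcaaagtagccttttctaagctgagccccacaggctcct
All 23 fatty acid oxidation genes fell, 21 at least 2-fold, among them the mitochondrial carrier Ucp3 (20.5-fold), the fatty acid transporter Cd36 (6.67-fold), the lipase Lpl (6.62-fold) and Mlycd (3.87-fold), with Eci2 the smallest (log2 difference -0.78 ± 0.08, adjusted p = 1.5e-06). Of 32 respiratory chain and citrate cycle genes 31 fell, 24 at least 2-fold, and Tfam, which maintains mitochondrial DNA, did not pass the test (log2 difference -0.06 ± 0.14, adjusted p = 0.705). Ppargc1a, the coactivator that drives mitochondrial genes in muscle, read 10.70, 10.90 and 10.82 in control muscle and 6.42, 6.4 and 6.37 in the tumours. It was among the largest falls of the list at 21.2-fold (log2 difference -4.41 ± 0.15, adjusted p = 5.56e-11), followed by the muscle forms of cytochrome oxidase subunits Cox7a1 (16.3-fold), Cox8b (8.31-fold) and Cox6a2 (6.31-fold).

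Many of these proteins have other forms in other tissues, and most of those rose. Of 27 listed pairs of an adult muscle form and another form of the same protein, 23 had both measured. The muscle form fell in all 23, and the other form rose in 17 of them, while in 5 both fell. Of these 17 opposite pairs, 13 were also opposite with reference genes. Creatine kinase went from Ckm (-1.77) towards Ckb, the brain form (1.61), glucose transport from Slc2a4 (-4.58) towards Slc2a1 (1.03), AMP deaminase from Ampd1 (-4.32) towards Ampd2 (1.94) and phosphoglycerate mutase from Pgam2 (-3.02) towards Pgam1 (2.46). Glycogen phosphorylase moved from Pygm (-2.81) towards Pygb (1.33), and cytochrome oxidase subunit 6a from Cox6a2 (-2.66) towards Cox6a1 (1.61). The contractile pairs did likewise. Troponin T moved from Tnnt3 (-1.92) to the embryonic and cardiac Tnnt2 (3.15), alpha-actinin from Actn3 (-2.13) to Actn1 (3.19), and the essential light chain from Myl1 (-0.65) to the embryonic Myl4 (1.91). In 21 of 23 pairs the other form gained on the muscle form in every tumour array against every muscle array. No such share was computed for other pairs of genes. The exceptions were sarcomeric actin, where Actc1, the fetal and cardiac form, differed by -1.97 and Acta1 by -0.72, and lactate dehydrogenase, where Ldhb, the heart form, differed by -3.07 and the muscle form Ldha by -0.65. Gpd1 and Gpd2, counted as a pair, are the cytosolic and the mitochondrial enzyme of the glycerol phosphate shuttle. Each probe set has its own response, so these values compare changes and not levels of the forms.

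**Figure D3:**
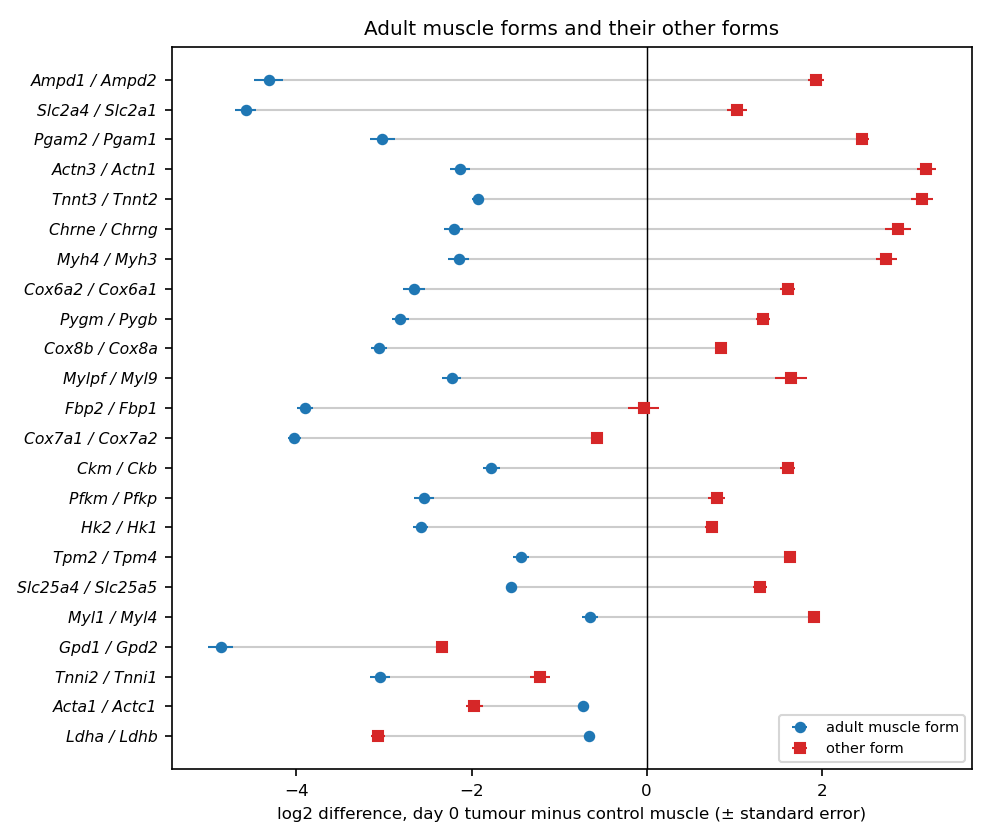
Log2 difference (tumour minus control muscle, ± standard error, n = 3 arrays per group) of the adult muscle form (circles) and another form (squares) of 23 proteins. Muscle forms all lie left of 0 and 17 other forms rose and lie right of it, 13 of which also did so with reference gene centring.

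The regulators of the muscle lineage did not move together. Of 27 genes of satellite cells and myoblasts, 16 rose and 8 fell, 9 and 3 at least 2-fold, with a median of 0.72 that became -0.25 with reference genes. Myf5, the earliest of the myogenic factors and the locus that drives Cre here, read 5.99, 6.08 and 6.18 in control muscle and 9.59, 9.43 and 9.57 in the tumours, and its 10.9-fold rise (log2 difference 3.45 ± 0.08, adjusted p = 3.78e-12) took it from within 1 unit of the background level to well above it in each tumour. The Cre allele sits in this locus in donor and control mice, and its part in the value was not tested. Myog, the factor of terminal differentiation, read 6.90, 6.8 and 7.28 in control muscle and 9.31, 9.35 and 9.52 in the tumours and rose as well (5.28-fold, log2 difference 2.40 ± 0.14, adjusted p = 4.63e-09). Myod1 read 9.69, 9.75 and 9.62 in control muscle and 10.20, 10.24 and 10.19 in the tumours, without overlap but by a small amount (log2 difference 0.52 ± 0.17, adjusted p = 0.0162) that turned into a fall with reference genes. Myf6, the factor of mature fibres, went the other way, with 11.15, 11.24 and 11.18 in control muscle and 9.10, 9.10 and 9.07 in the tumours (log2 difference -2.10 ± 0.11, adjusted p = 3.01e-09). Pax7, which marks satellite cells, read 7.69, 7.42 and 7.41 in control muscle and 7.15, 7.13 and 7.11 in the tumours and fell slightly (log2 difference -0.38 ± 0.08, adjusted p = 0.00122), and its relative Pax3 rose (log2 difference 0.79 ± 0.10, adjusted p = 1.95e-05) except with reference genes. The adhesion molecule Vcam1 rose 13.7-fold, Ncam1 5.38-fold and the muscle cadherin Cdh15 4.51-fold, and the growth factor receptor Fgfr4 rose 4.19-fold. Eya1, a cofactor of homeobox factors, fell 2.76-fold, and Eya4 did not pass the test (log2 difference 0.00 ± 0.06, adjusted p = 0.998).

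Genes of young muscle were divided. In the list of 26 genes of embryonic and early muscle, 14 rose and 9 fell, 12 and 6 at least 2-fold, with a median of 0.56 that became -0.40 with reference genes. N-cadherin (Cdh2) rose 20.6-fold and Tnnt2 8.86-fold. Embryonic myosin Myh3 read 6.74, 7.04 and 7.03 in control muscle and 9.68, 9.66 and 9.69 in the tumours, a rise of 6.67-fold (log2 difference 2.74 ± 0.12, adjusted p = 3.42e-10), whereas perinatal Myh8 read 8.2, 7.76 and 7.68 in control muscle and 8.17, 7.97 and 8.06 in the tumours and did not pass the test (log2 difference 0.19 ± 0.17, adjusted p = 0.32). Mymk, the fusion protein myomaker, read 8.43, 8.24 and 8.39 in control muscle and 11.03, 11.11 and 10.99 in the tumours (log2 difference 2.69 ± 0.15, adjusted p = 3.59e-09), and the second fusion protein, Mymx, rose less (log2 difference 0.45 ± 0.10, adjusted p = 0.00169) and fell with reference genes. Against the direction of the others, Actc1 read 13.03, 13.04 and 13.04 in control muscle and 11.13, 11.03 and 11.04 in the tumours (log2 difference -1.97 ± 0.10, adjusted p = 1.42e-09) and fell, and the differentiation factor Mef2c read 12.04, 12.02 and 12.03 in control muscle and 10.20, 10.09 and 10.13 in the tumours (log2 difference -1.89 ± 0.10, adjusted p = 2.14e-09). Slow troponins Tnnt1 and Tnni1, which are also used in adult slow fibres, fell by 1.45 and 1.22 on the log2 scale.

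The fetal and adult subunits of the acetylcholine receptor moved in opposite directions. Chrng, the fetal gamma subunit, read 6.58, 6.26 and 6.25 in control muscle and 9.21, 9.25 and 9.24 in the tumours (log2 difference 2.87 ± 0.15, adjusted p = 1.83e-09). Chrne, the adult epsilon subunit, read 9.51, 9.27 and 9.08 in control muscle and 7.03, 7.10 and 7.11 in the tumours (log2 difference -2.20 ± 0.11, adjusted p = 1.44e-09). The groups did not overlap for either subunit. Over all genes, tumours lay above muscle without overlap for 32.3% and below it for 50.4%. The shared subunits Chrna1 (4.65-fold), Chrnd (4.91-fold) and Chrnb1 (3.5-fold) rose. Over the whole neuromuscular list 10 of 17 genes rose and 5 fell, 6 and 3 at least 2-fold, with a median of 0.55 that became -0.41 with reference genes. The growth factor Nrg1 rose 18.5-fold (log2 difference 4.21 ± 0.16, adjusted p = 1.33e-10), acetylcholinesterase (Ache) fell 5.45-fold, and Musk, the receptor that organises the synapse, did not pass the test (log2 difference -0.04 ± 0.16, adjusted p = 0.82).

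Of 25 genes that hold back myogenic differentiation 10 rose and 11 fell, 7 and 1 at least 2-fold. The shares over all genes were 30.3% higher and 45.9% lower, 13.7% and 8.65% at least 2-fold. The median was -0.08, close to the -0.15 of all genes. Runx1, a transcription factor of injured and denervated muscle, read 7.92, 8.21 and 8.24 in control muscle and 11.60, 11.58 and 11.58 in the tumours, a rise of 11.0-fold (log2 difference 3.46 ± 0.11, adjusted p = 3.1e-11). Id2, an inhibitor of MyoD-type factors, read 8.01, 8.14 and 8.23 in control muscle and 10.90, 10.81 and 10.92 in the tumours and rose too (log2 difference 2.75 ± 0.09, adjusted p = 4e-11). Its relative Id3 rose (log2 difference 0.94 ± 0.12, adjusted p = 9.51e-06) but fell with reference genes, and Id1 fell (log2 difference -0.70 ± 0.09, adjusted p = 7.83e-06). Snai2 (4.02-fold), Snai1 (3.66-fold) and Twist1 (2.19-fold), which oppose differentiation and mark mesenchymal cells, rose, and the Notch effector Hey1 fell (log2 difference -1.02 ± 0.10, adjusted p = 1.71e-06). Zeb1 did not pass the test (log2 difference -0.02 ± 0.07, adjusted p = 0.846).

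Genes of cell division were higher in the tumours. All 30 measured mitosis and segregation genes rose at least 2-fold, with a median of 3.35 and a smallest rise of 1.12 for Aurka. Per array, the mean of the list lay between 6.11 and 6.27 in muscle and between 9.40 and 9.46 in tumours. Mki67, the proliferation marker, read 6.42, 6.43 and 6.53 in control muscle and 10.17, 10.11 and 10.21 in the tumours, a rise of 13.0-fold (log2 difference 3.70 ± 0.12, adjusted p = 2.24e-11). Top2a, the topoisomerase of mitotic chromosomes, read 5.44, 5.68 and 6.47 in control muscle and 10.64, 10.56 and 10.72 in the tumours, so the third muscle array was higher than the other two but still far below the tumours (log2 difference 4.78 ± 0.22, adjusted p = 7.36e-10). Plk1 rose 19.1-fold, the cytokinesis genes Anln and Ect2 28.9-fold and 25.5-fold, and the spindle checkpoint kinase Bub1 at least 13.6-fold. The CHR element TTTGAA is a promoter element of late cell cycle genes. It was found on either strand in 19 of 25 promoters of the mitosis list (76.0%) against 17.3% of all promoters. Among all genes at least 2-fold higher in tumours the share was 16.9%, no larger than among all promoters. Of 1373 genes at least 2-fold lower, 192 held the element. The last 120 bases before the start of Top2a (chr11:99024190-99024309, minus strand), Ect2 (chr3:27153879-27153998, minus strand) and Prc1, a spindle midzone protein (chr7:80294356-80294475, plus strand), in GRCm38.p6, show it in capitals at 23, 114 and 30 bases before the start.
Top2a: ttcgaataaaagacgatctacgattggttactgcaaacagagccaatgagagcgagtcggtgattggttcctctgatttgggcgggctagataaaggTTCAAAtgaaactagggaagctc
Ect2: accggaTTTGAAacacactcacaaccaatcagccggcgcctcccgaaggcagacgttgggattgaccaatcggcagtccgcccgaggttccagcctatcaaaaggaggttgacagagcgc
Prc1: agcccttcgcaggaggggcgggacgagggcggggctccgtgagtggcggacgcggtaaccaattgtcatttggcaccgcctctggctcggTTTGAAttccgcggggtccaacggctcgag
DNA replication genes followed with 27 of 28 higher, 25 at least 2-fold, and a median of 1.97. The reductase subunit Rrm2 rose 13.5-fold, the helicase subunit Mcm6 10.1-fold, the transcription factor E2f8 7.85-fold and the thymidylate synthase Tyms 7.76-fold, and Ccne2 did not pass the test (log2 difference 0.17 ± 0.10, adjusted p = 0.146).

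Genes of entry into the cycle mostly rose. Of 16 G1 cyclins and CDK inhibitors 11 rose and 3 fell, 10 and 1 at least 2-fold. Ccnd1, which encodes cyclin D1, read 9.02, 8.95 and 9.32 in control muscle and 12.49, 12.43 and 12.46 in the tumours, a rise of 10.3-fold (log2 difference 3.36 ± 0.09, adjusted p = 5.86e-12). Its partner Cdk6 read 6.79, 7.16 and 7.12 in control muscle and 11.52, 11.60 and 11.52 in the tumours, with a rise of 23.0-fold (log2 difference 4.52 ± 0.09, adjusted p = 1.22e-12). Cdkn2a, which encodes the inhibitor p16 and p19ARF, read 6.90, 6.92 and 6.87 in control muscle and 9.45, 9.62 and 9.52 in the tumours and rose too (log2 difference 2.63 ± 0.07, adjusted p = 1.01e-11). Mdm2, which degrades p53, read 9.95, 10.28 and 10.45 in control muscle and 12.67, 12.58 and 12.71 in the tumours (log2 difference 2.43 ± 0.12, adjusted p = 1.73e-09). Cdkn1c, an inhibitor used when myoblasts leave the cycle, fell (log2 difference -1.01 ± 0.15, adjusted p = 4.77e-05), as did Rbl2 (log2 difference -0.93 ± 0.07, adjusted p = 1.01e-07), and Rb1 itself did not pass the test (log2 difference 0.05 ± 0.12, adjusted p = 0.735). Of 15 p53 and stress genes 7 rose and 5 fell, 4 and 0 at least 2-fold, with a median of 0.15 that became -0.02 after quantile normalisation and -0.81 with reference genes. The shares over all genes were 30.3% higher and 45.9% lower, 13.7% and 8.65% at least 2-fold. The death receptor Tnfrsf10b (10.9-fold) and the kinase Plk2 (10.5-fold) rose most, Sesn1 (log2 difference -0.81 ± 0.13, adjusted p = 0.00013) and Ccng1 (log2 difference -0.70 ± 0.07, adjusted p = 1.62e-06) fell most, and Pmaip1 did not pass the test (log2 difference -0.02 ± 0.13, adjusted p = 0.917).

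Genes of biosynthesis rose in part. Of 24 ribosome biogenesis and Myc genes 19 rose and 1 fell, 7 and 0 at least 2-fold, with a median of 0.74 that became -0.23 with reference genes. Myc read 8.53, 8.74 and 8.77 in control muscle and 11.00, 11.13 and 11.05 in the tumours (log2 difference 2.38 ± 0.12, adjusted p = 1.33e-09), while its relative Mycn fell (log2 difference -0.85 ± 0.10, adjusted p = 6.99e-06) and Mycl did not pass the test (log2 difference -0.16 ± 0.11, adjusted p = 0.203). The nucleolar proteins Nop58 (5.04-fold) and Npm1 (4.17-fold) and the pyrimidine enzyme Cad (3.52-fold) rose most after Myc, and Nat10 did not pass the test (log2 difference -0.03 ± 0.08, adjusted p = 0.691). Among 22 amino acid and one-carbon genes 14 rose and 5 fell, 11 and 3 at least 2-fold, with a median of 1.00. The serine enzyme Psat1 read 6.78, 7.08 and 7.06 in control muscle and 10.76, 10.70 and 10.79 in the tumours, a rise of 13.7-fold (log2 difference 3.78 ± 0.13, adjusted p = 4.65e-11), and asparagine synthetase (Asns) rose 11.7-fold, the amino acid transporter Slc7a5 10.4-fold and the proline enzyme Aldh18a1 6.64-fold. Gpt2 (8.98-fold) and Chac1 (4.94-fold) fell, and Atf4, the factor that drives many of these genes, did not pass the test (log2 difference -0.02 ± 0.07, adjusted p = 0.783).

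Growth factor receptors mostly rose, with 14 of 20 receptor kinases and ligands higher and 3 lower, 10 and 1 at least 2-fold, and a median of 1.00. The ephrin receptor Epha2 rose 8.16-fold, the ligands Hgf at least 6.20-fold, Ereg at least 3.33-fold and Pdgfc 4.22-fold, and Met, the receptor of Hgf, 3.22-fold. Pdgfra, a receptor of fibroblasts and their progenitors, fell 2.22-fold, Fgfr3 fell (log2 difference -0.71 ± 0.12, adjusted p = 0.000197), and Erbb3 did not pass the test (log2 difference 0.09 ± 0.20, adjusted p = 0.669).

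Fetal growth genes were mixed. Of 19 measured oncofetal and imprinted genes 8 rose and 7 fell, 7 and 3 at least 2-fold, and their median of 0.06 became -0.08 after median centring and -0.91 with reference genes. The shares over all genes were 30.3% higher and 45.9% lower, 13.7% and 8.65% at least 2-fold. Hmga2, a chromatin protein of embryonic tissue, read 7.25, 7.37 and 7.29 in control muscle and 10.66, 10.75 and 10.69 in the tumours, a rise of 10.6-fold (log2 difference 3.40 ± 0.06, adjusted p = 5.02e-13). Mest read 7.59, 7.88 and 8.08 in control muscle and 10.74, 10.77 and 10.74 in the tumours (log2 difference 2.90 ± 0.13, adjusted p = 6.19e-10). The growth factor Igf2 read 9.48, 9.61 and 9.63 in control muscle and 11.02, 11.00 and 11.03 in the tumours (log2 difference 1.44 ± 0.07, adjusted p = 1.88e-09). None of these 3 genes overlapped between the groups, and 32.3% of all genes likewise had every tumour array above every muscle array. The RNA-binding protein Igf2bp1 rose 4.17-fold, while Igf2bp3 (log2 difference 0.06 ± 0.07, adjusted p = 0.481) did not pass the test. Grb10 (3.52-fold) and the noncoding Meg3 (2.35-fold) fell, as did Igf2r, which removes IGF2 from the cell surface (log2 difference -0.64 ± 0.06, adjusted p = 9.15e-07).

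Among 20 chromatin and DNA methylation genes 12 rose and 7 fell, 8 and 5 at least 2-fold, with a median of 0.76 that became -0.21 with reference genes. Rises included factors that maintain chromatin and methylation as DNA is copied, such as Hells (at least 4.29-fold), Uhrf1 (4.95-fold) and Dnmt1 (3.56-fold), and the deacetylase Hdac1 (3.49-fold). Those that fell most were the muscle methyltransferase Smyd1 (13.4-fold) and the muscle remodelling subunit Smarcd3 (3.51-fold). Dnmt3b did not pass the test (log2 difference 0.11 ± 0.08, adjusted p = 0.194).

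Mstn, which encodes myostatin, the brake on muscle growth, read 10.40, 10.52 and 10.49 in control muscle and 4.84, 4.75 and 4.80 in the tumours. It fell at least 27.8-fold to near background in each tumour (log2 difference -5.67 ± 0.18, adjusted p = 2.71e-11). Ostn, which encodes the muscle hormone osteocrin, read 10.42, 10.56 and 10.47 in control muscle and 4.57, 4.59 and 4.48 in the tumours, a fall of at least 28.1-fold (log2 difference -5.94 ± 0.07, adjusted p = 4.8e-14). Over 19 secreted and wasting genes 8 rose and 8 fell, 6 each at least 2-fold, with a median of 0.02 that became negative after median centring (-0.12), after quantile normalisation (-0.07) and with reference genes (-0.95). The ubiquitin ligases Trim63 (12.4-fold) and Fbxo32 (3.45-fold) and Mss51 (4.57-fold) fell, and the myostatin antagonists Fstl3 (6.42-fold) and Fst (2.82-fold) rose, as did the activin subunit Inhba (3.99-fold). Fbxo30 did not pass the test (log2 difference 0.02 ± 0.07, adjusted p = 0.816).

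Clock genes were lower. Of 14 circadian genes 13 fell, 9 at least 2-fold, with a median of -1.40. The output factor Dbp read 10.46, 10.37 and 10.32 in control muscle and 7.24, 7.27 and 7.51 in the tumours (log2 difference -3.04 ± 0.08, adjusted p = 9.17e-12), and Rora fell 8.10-fold. The repressor Nr1d1 read 11.94, 11.95 and 12.03 in control muscle and 10.18, 10.25 and 10.23 in the tumours (log2 difference -1.75 ± 0.06, adjusted p = 8.6e-11). Arntl, which encodes the activator BMAL1, fell (log2 difference -0.65 ± 0.08, adjusted p = 6.62e-06), and its partner Clock did not pass the test (log2 difference 0.05 ± 0.10, adjusted p = 0.658). The labels give no hour of collection, and its part in these values was not tested.

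Matrix genes rose for the most part. Of 26 collagen and matrix genes 18 rose and 6 fell, 15 and 5 at least 2-fold, with a median of 1.32. The crosslinking enzyme Lox read 8.15, 8.04 and 8.34 in control muscle and 11.89, 11.88 and 11.91 in the tumours, a rise of 13.1-fold (log2 difference 3.72 ± 0.09, adjusted p = 4.37e-12), and thrombospondin 1 (Thbs1) rose 8.77-fold, Col12a1 6.89-fold and periostin (Postn) 6.79-fold. Small matrix proteins that bind collagen fibrils fell, Dpt 5.04-fold (log2 difference -2.33 ± 0.21, adjusted p = 3.77e-07) and Lum 2.75-fold, and Col6a3 (log2 difference -0.12 ± 0.09, adjusted p = 0.225) did not pass the test. Among 22 matrix proteases and inhibitors 17 rose and 2 fell, 15 and 1 at least 2-fold. Timp1, an inhibitor of metalloproteinases, read 6.96, 6.67 and 6.91 in control muscle and 11.63, 11.61 and 11.63 in the tumours (27.4-fold, log2 difference 4.78 ± 0.07, adjusted p = 2.64e-13). The gelatinase Mmp9 read 7.41, 7.71 and 8.01 in control muscle and 12.09, 12.03 and 12.08 in the tumours (20.4-fold, log2 difference 4.35 ± 0.23, adjusted p = 1.88e-09). Adam8 rose 11.5-fold, the urokinase receptor Plaur 7.43-fold, and Timp4, a relative of Timp1, fell at least 16.9-fold to near background, while Mmp12 (log2 difference -0.03 ± 0.09, adjusted p = 0.761) did not pass the test. Of 20 integrins and laminins 14 rose and 6 fell, 5 and 2 at least 2-fold, with a median of 0.60 that became -0.37 with reference genes. The hyaluronan receptor Cd44 (7.35-fold), the fibronectin receptor chain Itga5 (5.41-fold) and Itga3 (4.69-fold) rose most, Itgb1bp2, the muscle protein melusin, fell most (6.38-fold), and the smallest difference was that of Lamc1 (log2 difference 0.17 ± 0.06, adjusted p = 0.028), which turned into a fall with reference genes and was no longer called without the first or the second muscle array or the first or the third tumour array.

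Interferon response genes rose throughout the list. All 18 measured genes rose at least 2-fold, with a median of 2.78. Cxcl10, an interferon-induced chemokine, read 7.22, 6.53 and 7.96 in control muscle and 12.06, 12.07 and 12.03 in the tumours. The muscle arrays differed by more than a unit among themselves but stayed far below the tumours (28.2-fold, log2 difference 4.82 ± 0.25, adjusted p = 2.04e-09). Irf7, the amplifier of the response, read 7.05, 7.36 and 7.63 in control muscle and 11.29, 11.38 and 11.37 in the tumours (log2 difference 4.00 ± 0.13, adjusted p = 3.6e-11), Ifit1 and Rsad2 rose 12.6-fold and 9.24-fold, and the smallest rise was that of Gbp5 (log2 difference 1.54 ± 0.09, adjusted p = 6.31e-09). The interferon-stimulated response element, searched as GAAA, any 2 bases and GAAA, which STAT and IRF proteins bind, was found in 8 of their 15 promoters (53.3%) against 3.9% of all promoters. Those of Ifit1 (chr19:34640739-34640888, plus strand) and Rsad2 (chr12:26456453-26456602, minus strand), 150 bases in GRCm38.p6, show it in capitals on the reverse strand, at 104 and 85 bases before the start in Ifit1 and at 120 in Rsad2.
Ifit1: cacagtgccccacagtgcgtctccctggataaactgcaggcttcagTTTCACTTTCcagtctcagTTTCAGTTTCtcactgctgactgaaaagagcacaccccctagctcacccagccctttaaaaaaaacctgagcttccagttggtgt
Rsad2: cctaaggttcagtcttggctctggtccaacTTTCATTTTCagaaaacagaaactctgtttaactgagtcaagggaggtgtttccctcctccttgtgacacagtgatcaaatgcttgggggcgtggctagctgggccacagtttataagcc
Of 13 MHC presentation genes 10 rose and 2 fell, 6 and 0 at least 2-fold, with a median of 0.93 that became -0.04 with reference genes. The immunoproteasome subunit Psmb8 (5.81-fold) and the peptide transporter Tap1 (5.14-fold) rose most. Nlrc5, an activator of class I genes, fell on the chosen probe set (log2 difference -0.57 ± 0.13, adjusted p = 0.00152) but stood at 0.68 on the mean of its probe sets, Ciita fell (log2 difference -0.45 ± 0.13, adjusted p = 0.00806), and the class II gene H2-Ab1 did not pass the test (log2 difference 0.23 ± 0.13, adjusted p = 0.12). Among 30 chemokines and cytokines 17 rose and 7 fell, 16 and 1 at least 2-fold, with a median of 1.11. Cxcl16 (18.0-fold), Ccl3 (15.3-fold), Ccl7 (12.8-fold) and Il33 (12.2-fold) rose most, Ccl11, which draws eosinophils, fell 4.12-fold, and Csf3 fell as well (log2 difference -0.51 ± 0.09, adjusted p = 0.000232). Il1a did not pass the test (log2 difference -0.01 ± 0.13, adjusted p = 0.929).

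**Figure D4:**
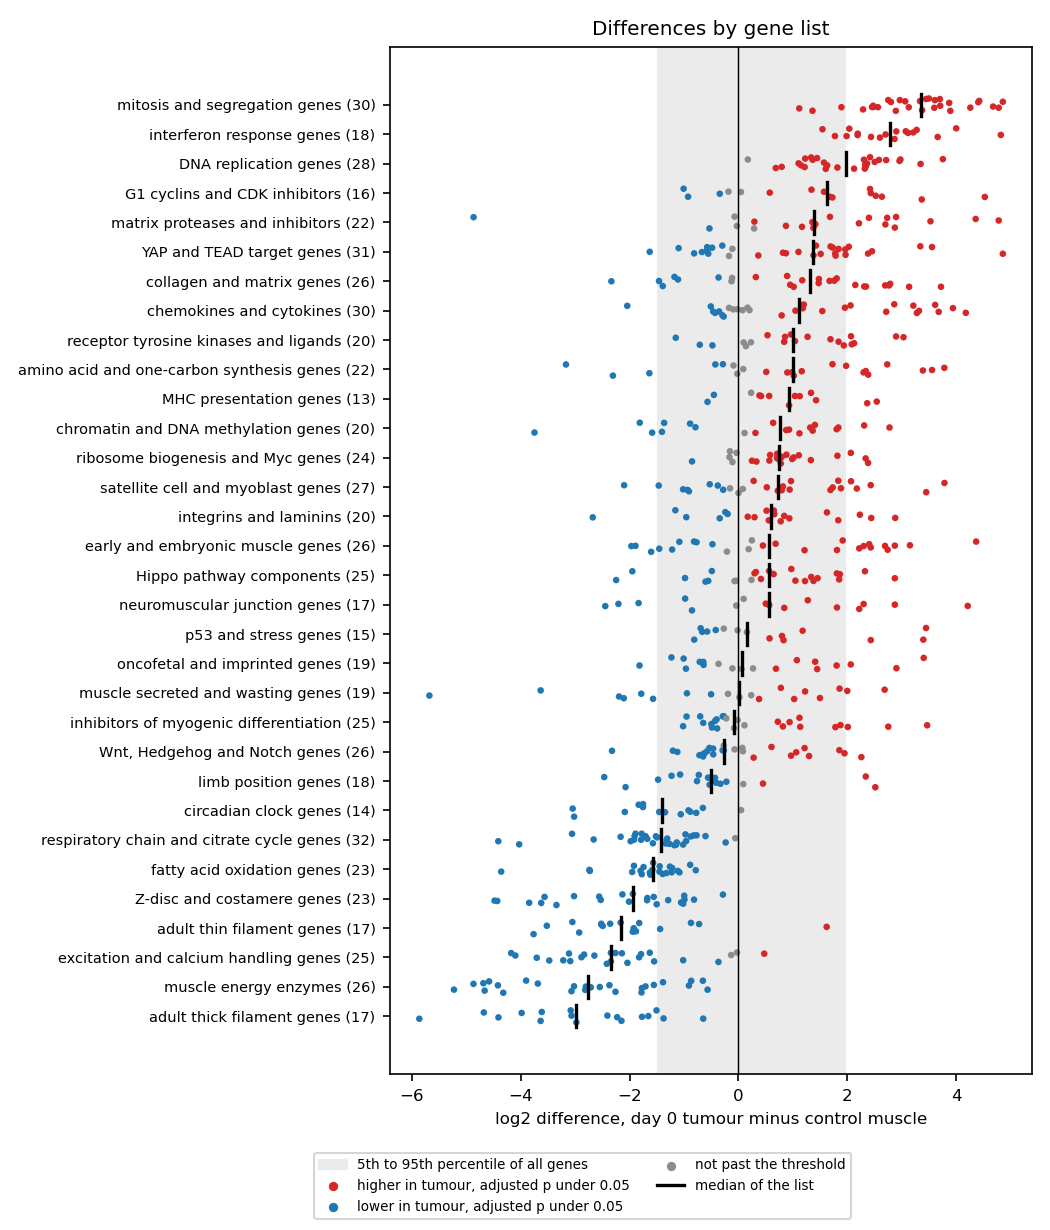
Log2 difference (tumour minus control muscle) of each gene in 32 lists, 1 point per gene, with the list median as a black bar and the number of genes in brackets. Mitosis, interferon and replication genes lie to the right and adult muscle genes to the left. The grey band spans the 5th to 95th percentile of all genes, and medians from 0.02 to 0.93 turned negative with reference genes.

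Markers of other cells moved as well, and their part in the lists above was not tested. Of 20 macrophage markers 17 rose and 2 fell, 15 and 0 at least 2-fold, with a median of 2.46, and the mean of the list per array was 7.35 to 7.45 in muscle and 9.35 to 9.36 in tumours. Adgre1, which encodes the macrophage protein F4/80, read 7.31, 7.61 and 7.87 in control muscle and 11.14, 11.18 and 11.14 in the tumours, a rise of 11.8-fold (log2 difference 3.56 ± 0.16, adjusted p = 5.06e-10). The scavenger receptor Msr1 rose 15.4-fold, Cd68 10.4-fold and Itgam 8.92-fold. The 2 falls were those of Cd163 (log2 difference -0.87 ± 0.19, adjusted p = 0.00136) and Marco (log2 difference -0.77 ± 0.15, adjusted p = 0.000595). Timd4 did not pass the test (log2 difference -0.15 ± 0.12, adjusted p = 0.251). Lyve1, which is also counted among the endothelial markers below, rose (log2 difference 0.52 ± 0.19, adjusted p = 0.0246) but fell with reference genes. Of 13 osteoclast markers 9 rose and 3 fell, 8 and 1 at least 2-fold, and the list mean was 7.04 to 7.06 in muscle and 8.84 to 8.86 in tumours. The proton pump subunit Atp6v0d2 read 5.10, 5.36 and 5.12 in control muscle and 10.13, 10.03 and 10.06 in the tumours (at least 21.1-fold, log2 difference 4.88 ± 0.15, adjusted p = 2.16e-11), and Acp5, the tartrate-resistant phosphatase, rose 17.7-fold. The largest falls were those of Car2 and Nfatc1, and the lowest log2 difference of the list was -1.18. The calcitonin receptor Calcr, a defining osteoclast marker that satellite cells also use, fell and lay within 1 unit of the background level in both groups (log2 difference -0.28 ± 0.09, adjusted p = 0.0119), a call that was lost without the second muscle or the third tumour array, and Siglec15 (log2 difference -0.17 ± 0.11, adjusted p = 0.174) did not pass the test.

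Granzymes stood out among lymphoid genes. Gzmd, a granule protease of activated killer cells, read 4.06, 4.20 and 4.73 in control muscle and 10.53, 10.37 and 10.53 in the tumours, a rise of at least 27.9-fold (log2 difference 6.15 ± 0.25, adjusted p = 2.17e-10), and Gzmf rose at least 23.3-fold. Of 13 T and NK cell markers 7 rose and 4 fell, 5 and 0 at least 2-fold, with a median of 0.58 that became -0.39 with reference genes, and a list mean of 5.62 to 5.67 in muscle and 6.42 to 6.44 in tumours. The killer cell genes Gzmb, Prf1 and Nkg7 rose 8.30-fold, 4.98-fold and 3.48-fold, and the NK receptor Ncr1 read 4.98, 4.98 and 5.33 in control muscle and 6.12, 6.11 and 6.07 in the tumours (log2 difference 1.00 ± 0.25, adjusted p = 0.00332). The listed T cell marker Cd4 rose as well, by an amount between those of Prf1 and Nkg7. The T cell receptor genes Cd3e (log2 difference -0.63 ± 0.09, adjusted p = 3.66e-05) and Cd3d (log2 difference -0.43 ± 0.09, adjusted p = 0.000882) fell, Cd3g did not pass the test (log2 difference -0.01 ± 0.11, adjusted p = 0.961), and Cd3d and Cd3g were near background in both groups. Of 8 B cell markers 6 fell and 1, Cd79b, rose, with list means of 5.35 to 5.51 and 5.24 to 5.34, and without the third tumour array 3 of the 6 falls were left. Of 12 neutrophil markers 8 fell by less than 2-fold and 1, Csf3r (log2 difference 1.00 ± 0.17, adjusted p = 0.000215), rose, with list means of 5.17 to 5.26 and 5.02 to 5.08, near background, and after quantile normalisation 2 falls were left. Among 11 dendritic and mast cell markers 5 rose and 1 fell, 3 and 0 at least 2-fold, with a median of 0.48 that became -0.49 with reference genes and list means of 6.36 to 6.46 and 7.09 to 7.12, led by Itgax (6.26-fold) and the mast cell protease Cpa3 (3.68-fold). The fall was that of the dendritic cell marker Zbtb46.

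Endothelial and adipocyte markers were mostly lower. Of 18 endothelial markers 16 fell, 8 at least 2-fold, and 2 rose, Plvap (log2 difference 0.61 ± 0.12, adjusted p = 0.000405) and Lyve1 (log2 difference 0.52 ± 0.19, adjusted p = 0.0246), both of which fell with reference genes, with list means of 9.23 to 9.28 in muscle and 8.36 to 8.38 in tumours. The count of rises was 1 without any one of the tumour arrays or without the first or the third muscle array, since Lyve1 was then lost. Flt1 fell 3.57-fold, the fatty acid carrier Fabp4 3.45-fold, the water channel Aqp1 3.28-fold and Tek 3.27-fold. Of 12 pericyte and smooth muscle markers 8 fell and 4 rose, 4 and 2 at least 2-fold, with list means of 9.51 to 9.54 and 8.88 to 8.95. Abcc9, which is also a channel subunit of muscle fibres, read 11.81, 11.85 and 11.82 in control muscle and 8.17, 8.16 and 8.2 in the tumours (log2 difference -3.65 ± 0.11, adjusted p = 2.1e-11), Rgs5 fell 4.75-fold, and Acta2 (2.88-fold) and Pdgfrb (2.05-fold) rose. The 15 measured fibroblast markers did not share a direction, with 7 falls and 5 rises, 5 and 4 at least 2-fold, and list means of 9.58 to 9.65 and 9.47 to 9.49. Over all genes 45.9% were called lower and 30.3% higher, 8.65% and 13.7% at least 2-fold. Of 11 adipocyte markers 10 fell, 9 at least 2-fold, with list means of 8.96 to 9.03 and 6.47 to 6.55. This list shares Slc2a4 and Lpl with the genes of muscle fuel use above, and Fabp4 with the endothelial markers. How far loss of fibre RNA contributes to its fall was not tested. The defining markers Retn, which read 9.82, 9.97 and 9.93 in control muscle and 5.59, 5.71 and 5.47 in the tumours (log2 difference -4.31 ± 0.12, adjusted p = 1.07e-11), and Adipoq, with 8.32, 7.84 and 8.44 in control muscle and 5.37, 5.47 and 5.52 in the tumours (log2 difference -2.74 ± 0.27, adjusted p = 9.11e-07), came within 1 unit of the background level in the tumours, and Plin4 fell 16.5-fold, while Ucp1 (log2 difference -0.07 ± 0.07, adjusted p = 0.416) did not pass the test. Of 10 Schwann and nerve markers 8 fell and 1 rose, none by 2-fold, with list means of 6.49 to 6.55 and 6.07 to 6.15, and after quantile normalisation 4 falls were left. Lower calls were made for 45.9% of all genes. Falls were also called for 477 of the 1027 olfactory receptor genes, whose median difference was -0.15.

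**Figure D5:**
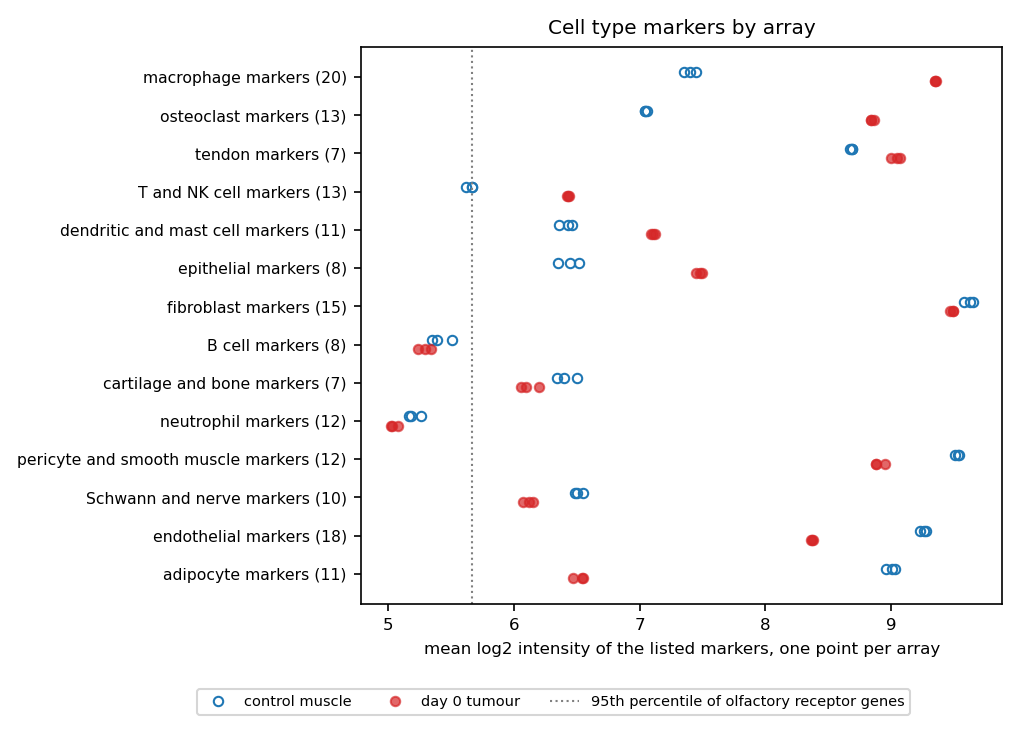
Mean log2 intensity of the markers of 14 cell types on each of 3 control muscle arrays (open circles) and 3 day 0 tumour arrays (filled circles), with the number of markers in brackets. Macrophage and osteoclast means are higher and adipocyte and endothelial means lower in all tumour arrays; T and NK, dendritic, tendon and epithelial lists had medians that turned negative with reference genes, and the neutrophil and B cell means lie below the dotted line, the 95th percentile of olfactory receptor genes.

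Tendon, cartilage and epithelial markers gave smaller or mixed values. Of 7 tendon markers 4 rose and 2 fell, 2 and 0 at least 2-fold, with a median of 0.68 that became -0.29 with reference genes, list means of 8.67 to 8.69 and 9.0 to 9.07, and the tendon factor Scx at 3.26-fold higher. Of 7 cartilage and bone markers 4 fell, led by the phosphatase Alpl (5.32-fold), and 1, Sox9, rose 3.43-fold, with list means of 6.34 to 6.5 and 6.06 to 6.2, and 2 falls were left without the first muscle array or the third tumour array. Of 8 epithelial markers 3 rose, each at least 2-fold, and 3 fell, with a median of 0.05 that became -0.09 after median centring and -0.92 with reference genes, and list means of 6.35 to 6.52 and 7.45 to 7.5. The keratin Krt8 read 7.30, 7.53 and 7.88 in control muscle and 11.93, 12.02 and 11.86 in the tumours, a rise of 20.6-fold (log2 difference 4.36 ± 0.16, adjusted p = 7.06e-11), and its partner Krt18 (2.94-fold) and the stress gene Sprr1a (11.3-fold) also rose. Epcam (log2 difference -0.27 ± 0.09, adjusted p = 0.0148) fell near background, a call lost without the first muscle or the third tumour array, and Cdh1 (log2 difference 0.04 ± 0.10, adjusted p = 0.693), the epithelial cadherin, did not pass the test. The red cell genes measured were Alas2 (log2 difference -1.51 ± 0.13, adjusted p = 2.97e-07) and Slc4a1 (log2 difference -0.57 ± 0.08, adjusted p = 3.62e-05), both lower in tumours.

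Genes of limb position mostly fell. Of 18 limb position genes 14 fell and 3 rose, 5 and 2 at least 2-fold, with a median of -0.51. The shares over all genes were 45.9% lower and 30.3% higher, 8.65% and 13.7% at least 2-fold. Hoxd10 read 7.98, 8.09 and 8.2 in control muscle and 5.61, 5.64 and 5.63 in the tumours (log2 difference -2.46 ± 0.10, adjusted p = 1.98e-10) and Tbx15 fell 4.21-fold, Hoxd9 2.78-fold and Hoxa13 at least 1.84-fold. In the opposite direction Hoxc8 read 7.76, 7.60 and 7.56 in control muscle and 10.14, 10.09 and 10.22 in the tumours (5.70-fold, log2 difference 2.51 ± 0.13, adjusted p = 2.46e-09), Hoxc12 rose 5.05-fold, and Hoxc11 did not pass the test (log2 difference 0.09 ± 0.10, adjusted p = 0.452). Of 26 Wnt, Hedgehog and Notch genes 13 fell and 9 rose, 3 and 6 at least 2-fold, with a median of -0.27, and their shares lay near the 45.9% lower and 30.3% higher of all genes. The secreted Wnt inhibitor Frzb fell at least 3.17-fold and the Notch ligand Jag2 2.30-fold, while Gli3 rose 4.77-fold and Notch2 3.61-fold. Axin2, a Wnt target, did not pass the test (log2 difference 0.07 ± 0.13, adjusted p = 0.622).

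Sex-linked genes separated the groups. The Y-linked Uty read 4.84, 4.56 and 4.71 in control muscle and 7.5, 7.30 and 7.41 in the tumours (log2 difference 2.70 ± 0.23, adjusted p = 2.5e-07). Eif2s3y, also Y-linked, read 4.70, 4.77 and 4.84 in control muscle and 7.23, 7.04 and 7.33 in the tumours (log2 difference 2.43 ± 0.19, adjusted p = 1.16e-07). Both were near background in each muscle array and higher in each tumour. Xist, which is made from the inactive X of females, read 10.70, 10.85 and 10.81 in control muscle and 11.18, 11.10 and 11.20 in the tumours (log2 difference 0.37 ± 0.12, adjusted p = 0.0157), so it was high in both groups, and the small rise was no longer called without the first muscle array. Every tumour array thus held Xist and Y-linked RNA together, and the part of sex in the other results was not tested.

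Beyond the lists, the largest rises included Brinp3, a secreted protein best known from neurons, which read 5.27, 5.46 and 5.99 in control muscle and 11.30, 11.33 and 11.31 in the tumours (53.5-fold, log2 difference 5.74 ± 0.14, adjusted p = 3.39e-12). Glipr1 read 6.03, 6.25 and 6.90 in control muscle and 11.77, 11.71 and 11.87 in the tumours (42.0-fold). The metalloreductase Steap2 read 5.72, 5.65 and 6.41 in control muscle and 11.17, 11.09 and 11.12 in the tumours (36.7-fold). In all 3 the third muscle array was the highest of its group and still over 4 units below the tumours. The carboxypeptidase Cpm read 6.98, 7.88 and 9.27 in control muscle and 12.88, 12.80 and 13.00 in the tumours (28.8-fold, log2 difference 4.85 ± 0.39, adjusted p = 1.51e-07), with muscle arrays far apart, and its difference was 5.46 without the third muscle array. Clca3a1 rose at least 16.8-fold, another carboxypeptidase, Cpa4, at least 19.9-fold, and the membrane proteins Ms4a6d and Ms4a4c, which macrophages use, 26.4-fold and 26.1-fold. The largest falls were of fibre genes for the most part. The sodium channel subunit Scn4b fell 48.4-fold, the phospholipase Plcd4 at least 37.8-fold, Mlf1 39.1-fold, the Z-disc protease-like gene Ky 33.9-fold, the lipid transfer gene Osbpl6 30.9-fold, the ubiquitin ligase subunit Asb15 30.7-fold, Tlcd4 30.2-fold and Fsd2 29.1-fold. Retnla, a secreted protein of fat and of alternatively activated macrophages, read 10.14, 10.08 and 9.93 in control muscle and 4.85, 4.97 and 4.73 in the tumours and fell at least 20.8-fold (log2 difference -5.20 ± 0.17, adjusted p = 3.53e-11), against the direction of most macrophage markers.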

How the data were processed

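Expression was measured on one-colour Affymetrix arrays that hold 34760 probe sets. The authors deposited a linear intensity per probe set and array, normalised with RMA per the submitters' processing notes, a step whose version is not given in the sources used here. Log2 of this deposited intensity served for all steps. Of the probe sets, 21640 carried 1 gene symbol in the platform annotation, 1321 several and 11799 none. Of those with 1 symbol, 21553 had a gene ID that matched RefSeq. The match changed none of their symbols, so all kept the annotation's. In 954 genes several probe sets competed and the one with the highest mean was used.

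All 12 arrays were fitted with a mean per group in limma 3.58.1 (R 4.3.3, lmFit and eBayes), and the day 0 tumour and control muscle groups were contrasted, with Benjamini-Hochberg adjustment over 19937 genes and a threshold of 0.05. The median standard error was 0.086. On simulated arrays with independent noise and no shift between arrays, 67, 67 and 66 of 19937 genes were changed by 1.5, 2 and 4-fold. Of these, 86.6%, 94% and 100% were recovered, and 3.6% of calls were false. In the data 76.2% of genes were called and the scaling mattered, so this rate does not carry over to the calls reported here. Tables and figures used Python 3.11.15, pandas 2.3.3, numpy 2.4.6 and matplotlib 3.10.9.

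Of 897 listed genes, 835 were measured, and the others were not analysed here. Genes were named by a rule: the 15 largest rises and the 15 largest falls whose arrays did not overlap, up to 4 members of each list in its main direction, up to 2 against it, the member nearest 0, 13 fixed genes and the pairs. Predicted genes, olfactory receptors, small RNAs and immunoglobulin segments were left out of the largest changes. The comparison, lists and pairs were chosen with earlier results of these data known, and other list members named in the text were chosen after their values were seen. Alternatives were 4 scalings, 2 ways to treat probe sets, a filter on low genes, 2 variance models, a replicate block, a fit to the 6 arrays alone, a stricter threshold and leaving out each array. Same-numbered arrays were not treated as paired. Their deviations correlated at 0.041, -0.217 and 0.143, and those of arrays with different numbers at -0.299 to 0.261. With 3 arrays per group these values cannot show whether the samples were paired.

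The lactate dehydrogenase pair was ordered with Ldha as the muscle form after its values were seen. Promoter sequences, 250 bases before to 50 after the start, are RefSeq's (GRCm38.p6), matched by symbol for 15613 of the genes. A gene held a motif when any of its listed promoters did.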

Additional observations from a re-analysis of the deposited data

How the results depend on the processing

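As deposited, 6038 genes were called higher and 9161 lower, 2727 and 1724 of them at least 2-fold. With arrays centred on reference genes the counts were 2229 higher and 16392 lower, 968 and 12079 at least 2-fold. Counted as probe sets, 9984 were higher, 4122 at least 2-fold, and among genes above the median level 3373 were lower, since more and fewer features were tested. Leaving out 1 array gave 5733 to 5904 higher, 7880 to 8813 lower, 2679 to 2767 at least 2-fold higher and 1714 to 1775 at least 2-fold lower.

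With reference genes, many named genes that rose or differed little were lower: Axin2 by -0.90, Ccn2 -0.15, Ccne2 -0.80, Cdh1 -0.92, Clock -0.92, Dnmt3b -0.86, Erbb3 -0.87, Eya4 -0.97, Fbxo30 -0.95, H2-Ab1 -0.74, Hoxc11 -0.88, Id3 -0.03, Igf2bp3 -0.91, Lamc1 -0.80, Lyve1 -0.45, Myh8 -0.78, Mymx -0.52, Myod1 -0.45, Pax3 -0.18, Plvap -0.36, Rb1 -0.92, Sln -0.50, Tead3 -0.56, Tead4 -0.73, Wwtr1 -0.32, Xist -0.59 and Yap1 -0.67. The subtraction of 1 value from every gene produces this. Of genes called under either setting, cyclic loess turned Eya4 to -0.21, Fbxo30 to -0.19, Lamc1 to -0.04 and Mmp12 to 0.25, and quantile normalisation turned Fbxo30 to -0.15 and Mmp12 to 0.22. On the mean over probe sets Nlrc5 stood at 0.68 and Tpm3 at -0.03. Causes of these last changes were not tested. Genes called under neither setting also changed sign, 9 with median centring, 13 with quantile normalisation, 9 with cyclic loess and 4 with array weights, among them Clock, Rb1 and Cd3g.

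With the replicate number as a block, 5981 genes were higher and 8840 lower, 2727 and 1724 at least 2-fold, and no named gene changed its call. Whether the numbers pair the samples is not known.

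Depth is not defined for arrays. Genes near background carry little signal, and the smallest differences there follow the scaling.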

Other observations

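Some gene families outside the lists, chosen after their values were seen, are given here as whole families. All 34 complex I subunits of the Nduf family fell, 21 at least 2-fold, with a median of -1.21. Of 55 cytoplasmic ribosomal protein genes 47 rose and 4 fell, with a median of 0.57 that became -0.40 with reference genes. The clear exception was Rpl3l, the muscle form of a large-subunit protein, which read 11.02, 11.06 and 10.97 in control muscle and 6.44, 6.49 and 6.38 in the tumours (log2 difference -4.58 ± 0.21, adjusted p = 7.5e-10). Mitochondrial ribosomal proteins went the other way, with 45 of 74 lower and 9 higher and a median of -0.36. Among 18 Asb genes, which encode adaptors of ubiquitin ligases, 14 fell, 11 at least 2-fold, with Asb15 and Asb14 lowest (-4.94 and -4.71). Of 36 Klhl genes, adaptors of another ubiquitin ligase, 24 fell and 8 rose, 14 and 3 at least 2-fold.

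Of 10 granzyme genes 7 rose and 1 fell, with a median of 3.49. Gzme read 4.79, 4.59 and 5.14 in control muscle and 9.52, 9.52 and 9.50 in the tumours (log2 difference 4.67 ± 0.26, adjusted p = 4.01e-09) and Gzmc 5.12, 5.28 and 5.34 in control muscle and 9.22, 8.94 and 9.36 in the tumours (log2 difference 3.93 ± 0.23, adjusted p = 5.54e-09). Near-identical granzymes may share probes, so these values are uncertain for single members. In the Ms4a family 7 of 19 genes were higher and 7 lower, where 30.3% and 45.9% of all genes were. At least 2-fold apart were 6 and 0 of them, where 13.7% and 8.65% of all genes were. Rises in this family were led by Ms4a6d and Ms4a4c and included Ms4a7 (25.1-fold).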
